A study of Mus musculus with 59 samples.

Results

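Ide, the insulin-degrading enzyme, stood at 1 of 2 separate levels in the cortex of these mice, and the libraries were selected on that measured level. Of the 30 cortex libraries of the series (59 libraries in all), the 13 with Ide under 62 CPM (read counts of a gene scaled to a common library total) form the low group and the 17 with 62 or more form the high group. The division rests on the measured level of Ide itself, so the difference in Ide between the cortex groups is a description and was not tested. What was tested is which other genes differed between the groups in cortex, and whether Ide and those genes differed in the hippocampus libraries of the same animals, which played no part in setting the groups.

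The series sequenced polyadenylated RNA from 30 male mice, with 1 cortex and 1 hippocampus library per animal, except that wild-type animal 1 has no hippocampus library among those analysed here. Animals are labelled wild type (Mrpl40 +/+ and Slc25a1 +/+, 9 mice), Slc25a1 heterozygous (Mrpl40 +/+ and Slc25a1 -/+, 7 mice), Mrpl40 heterozygous (Mrpl40 -/+ and Slc25a1 +/+, 7 mice) or double heterozygous (Mrpl40 -/+ and Slc25a1 -/+, 7 mice). The sources used here give no age, strain or litter. The low group held 6 wild-type, 2 Slc25a1 heterozygous, 3 Mrpl40 heterozygous and 2 double heterozygous animals, and the high group held 3, 5, 4 and 5. In hippocampus the low group had the same 13 animals and the high group had 16.

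Library totals ran from 21443017 to 32120906 counts, with medians of 26587179 in the low and 28847851 in the high cortex group. Cortex and hippocampus libraries were separated by their markers: Prox1, a transcription factor of dentate granule cells, ran from 10.6 to 15.3 CPM in cortex and from 136 to 319 CPM in hippocampus. Slc25a1 went against the labelled genotype in 6 animals, judged by a level of 16 CPM, so genotypes are given as labelled and results are also given without those animals where they change. Mrpl40 ran from 15.4 to 19.2 CPM in cortex labelled Mrpl40 heterozygous and from 16.0 to 20.5 CPM in wild-type cortex, so its level does not check that label.

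Ide is a zinc metalloprotease that cleaves insulin, amyloid beta and several other small peptides, and it is made in neurons and glia. Its gene lies on mouse chromosome 19. In the GENCODE vM21 annotation of GRCm38 the order there is Tnks2, Fgfbp3, Btaf1, Cpeb3, Marchf5, Ide, Kif11, Hhex and Exoc6. Fgfbp3 encodes a secreted protein that binds fibroblast growth factors. Btaf1 encodes an ATPase that takes the TATA-binding protein off DNA, Cpeb3 an RNA-binding regulator of translation at synapses, and Marchf5 a ubiquitin ligase of the outer mitochondrial membrane. Ide and Fgfbp3 are known to differ in copy number between individual C57BL/6J mice. No DNA was measured here, and the part of gene copy number in the levels below was not tested.

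In cortex, 3 genes besides Ide passed the test between the groups, and all 3 were lower with low Ide: Fgfbp3, Btaf1 and ENSMUSG00000120174, a gene for which the files give no symbol. These are 0.0144% of the 20779 genes tested with edgeR's quasi-likelihood test (labelled genotype as covariate, Benjamini-Hochberg adjusted p under 0.05), and 0 genes were called higher. In hippocampus, 4 of 20532 genes (0.0195%) passed, again all lower and 0 higher: Ide and the same 3 genes. An unadjusted p under 0.05 was met by 629 genes in cortex (3.03%; 1.59% lower and 1.44% higher with low Ide) and by 758 in hippocampus (3.69%; 1.62% lower and 2.07% higher). DESeq2 called 5 genes in cortex, these 3 with Crx and Gm4792, both higher with low Ide, and it called 4 in hippocampus.

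Ide ran from 43.2 to 53.4 CPM in the low cortex libraries, with a median of 49.0. In the high cortex libraries it ran from 70.8 to 81.3 CPM, with a median of 75.2. The library just under the threshold had 53.4 CPM and the library just over it 70.8, with none between them. The group means were 48.9 ± 2.68 (SD, n = 13) and 75.6 ± 2.94 CPM (SD, n = 17), a ratio of high to low of 1.55.

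The same animals were separated in hippocampus, where Ide took no part in the division. It ran from 43.7 to 54.1 CPM in the 13 animals with low Ide in cortex, with a median of 48.7. It ran from 71.3 to 81.0 CPM in the 16 animals with high Ide in cortex, with a median of 73.3. The hippocampus groups did not overlap, and each animal stood on the same side in both tissues. The fitted log2 difference, low minus high, was -0.59 ± 0.031 (SE), with an adjusted p of 3.01e-14 by edgeR. Permuting the groups within labelled genotype gave a difference of -0.60 in mean log2 CPM and a two-sided p of 1e-05, the smallest that 100000 permutations can give.

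**Figure D1:**
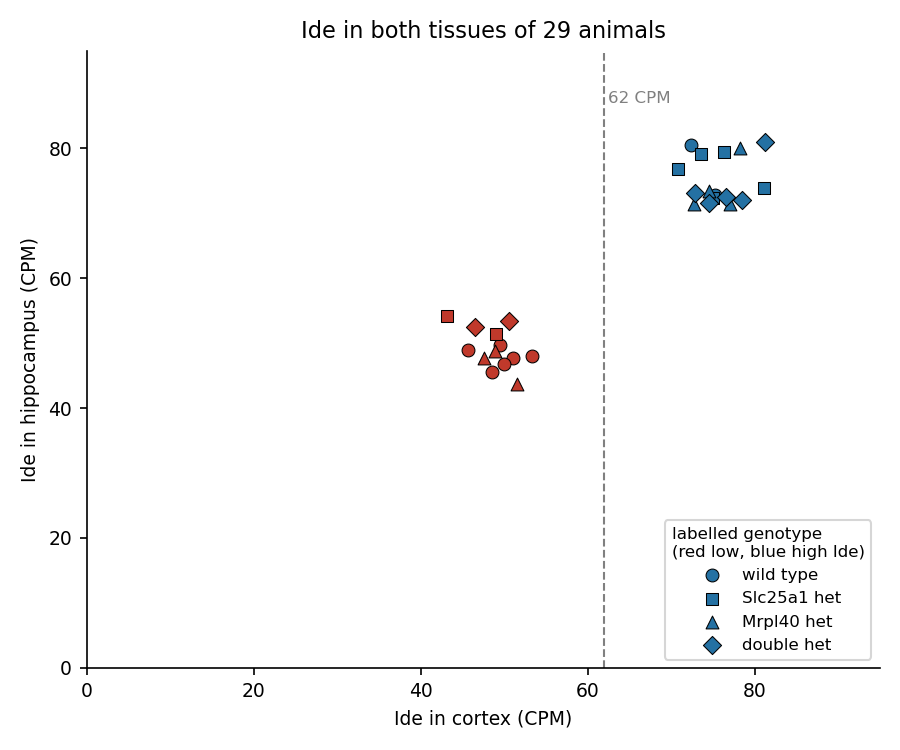
Ide level in cortex (x axis, CPM) against hippocampus (y axis, CPM) for the 29 animals with both tissues; red points are the low and blue points the high cortex group, marker shape gives the labelled genotype, and the dashed line marks 62 CPM. The low animals sit at 43.7 to 54.1 CPM in hippocampus and the high animals at 71.3 to 81.0, with no animal between.

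Both levels of Ide occurred in every labelled genotype. The cortex ratio of high to low lay between 1.49 in wild-type animals and 1.63 in animals labelled Slc25a1 heterozygous. In hippocampus it lay between 1.40 in double heterozygous and 1.61 in wild-type animals. The share of wild-type animals differed between the groups, 6 of 13 against 3 of 17, without passing Fisher's exact test (two-sided p = 0.123, adjusted p = 0.493 over 4 tests). Low measured Slc25a1 was found in 6 of 13 low and 6 of 17 high animals (p = 0.711, Fisher's exact test). High Wdfy1, a gene that also stands at separate levels in these mice, was found in 5 of 13 low and 5 of 17 high animals (p = 0.705, Fisher's exact test).

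Within the groups, no relation between the animals' Ide levels in the 2 tissues passed a test. Among low animals Pearson's r was -0.50 and Spearman's rho -0.40 (n = 13, permutation p = 0.080 and 0.178). Among high animals r was 0.086 and rho 0.065 (n = 16, permutation p = 0.750 and 0.814). Without the 2 animals farthest from the median, r was -0.30 and -0.14. None of 10 within-group relations tested between Ide and Fgfbp3, Btaf1 or the other tissue passed after adjustment, the smallest adjusted p being 0.401.

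The start of each of the 3 protein-coding genes lower with low Ide is shown here as the 250 bases before it, because these genes differ together. The sequences are from RefSeq for GRCm38.p6, 5′ to 3′ on the gene's own strand, at chr19:36919600-36919849 (minus strand) for Fgfbp3, chr19:36925829-36926078 (plus strand) for Btaf1 and chr19:37334545-37334794 (minus strand) for Ide. Capitals mark matches, on either strand, to the 6 motifs searched.
Fgfbp3: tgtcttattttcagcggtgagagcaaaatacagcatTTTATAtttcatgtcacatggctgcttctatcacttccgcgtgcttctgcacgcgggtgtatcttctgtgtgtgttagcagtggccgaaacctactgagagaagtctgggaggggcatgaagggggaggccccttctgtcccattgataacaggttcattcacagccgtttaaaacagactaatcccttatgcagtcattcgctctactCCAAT
Btaf1: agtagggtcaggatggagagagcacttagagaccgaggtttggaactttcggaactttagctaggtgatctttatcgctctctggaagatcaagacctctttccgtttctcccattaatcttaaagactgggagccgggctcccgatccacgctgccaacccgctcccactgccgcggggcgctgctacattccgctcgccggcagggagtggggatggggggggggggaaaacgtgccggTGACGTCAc
Ide: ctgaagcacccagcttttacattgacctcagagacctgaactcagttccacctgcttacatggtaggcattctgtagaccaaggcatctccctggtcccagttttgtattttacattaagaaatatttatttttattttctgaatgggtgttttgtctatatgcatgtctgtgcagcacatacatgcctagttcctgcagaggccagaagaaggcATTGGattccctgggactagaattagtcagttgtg

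No motif searched was found in all 3. The matches are of letters only, and their function was not tested. The TATA box letters (TATAAA), present in 13.0% of 27025 promoters of this length, were found in Fgfbp3 only. That match is on the opposite strand and near the end of the window far from the start, so it does not show a TATA-box promoter. The CCAAT box letters (CCAAT, in 34.5% of promoters) were found in Fgfbp3, in the last bases before the start, and in Ide, on the opposite strand. The letters of the cyclic AMP response element (TGACGTCA, in 1.62%) were found in Btaf1 only, next to the start. The GC box (GGGCGG, in 32.9%), the E-box CACGTG (in 6.05%) and the ETS motif CCGGAAGT (in 2.93%) were found in none of these 3 windows. The windows differed in CpG dinucleotides, with 8 in Fgfbp3, 17 in Btaf1 and 0 in Ide, against a median of 6 over all promoters. For each gene the first RefSeq start listed was used. For Ide that start lies inside the longer GENCODE gene model, so its window is not upstream of every Ide transcript. The motif matches and CpG count of Ide hold for that start only.

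Fgfbp3, whose gene lies 349 kb from Ide, ran from 3.83 to 6.54 CPM in the low cortex libraries, with a median of 5.49. In the high cortex libraries Fgfbp3 ran from 6.07 to 9.21 CPM, with a median of 7.55. The groups overlapped slightly: 10 of 13 low libraries were below every high library, and 13 of 13 were below the high median. The means were 5.32 ± 0.876 (SD, n = 13) and 7.62 ± 0.799 CPM (SD, n = 17). The fitted log2 difference was -0.53 ± 0.070 (SE; edgeR adjusted p = 8.29e-05), and the permutation test within genotype gave -0.54 with a two-sided p of 2e-05. These levels rest on 107 to 265 reads per cortex library.

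In hippocampus Fgfbp3 ran from 4.93 to 8.64 CPM in the low group (median 6.75) and from 6.10 to 11.1 CPM in the high group (median 9.52). The overlap was wider than in cortex, with 4 of 13 low libraries below every high library and 13 of 13 below the high median. The log2 difference was -0.52 ± 0.073 (SE; edgeR adjusted p = 0.000394). The difference of Fgfbp3 in hippocampus minus that in cortex was 0.061 ± 0.097 (log2, SE; edgeR adjusted p = 0.993), so the tissues were not shown to differ. The 95% interval of that tissue difference ran from -0.14 to 0.26.

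The cortex ratio of Fgfbp3 varied between genotypes, from 1.23 in wild-type and 1.26 in double heterozygous animals to 1.61 in Slc25a1 heterozygous and 1.82 in Mrpl40 heterozygous animals. A test of group by genotype gave Fgfbp3 an unadjusted p of 0.00506 in cortex and an adjusted p of 0.996 (edgeR), so these ratios were not shown to differ. In hippocampus the ratios of Fgfbp3 lay between 1.35 and 1.49. No gene passed that test in either tissue, 0 of 20780 in cortex and 0 of 20532 in hippocampus.

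Btaf1, 256 kb from Ide, ran from 29.7 to 41.1 CPM in the low cortex libraries, with a median of 34.9. In the high cortex libraries Btaf1 ran from 37.2 to 54.7 CPM, with a median of 45.5. The groups overlapped, with 9 of 13 low libraries below every high one and 12 of 17 high libraries above every low one. The means were 34.8 ± 3.83 (SD, n = 13) and 44.5 ± 5.23 CPM (SD, n = 17), and the log2 difference was -0.38 ± 0.063 (SE; edgeR adjusted p = 0.0104). Btaf1 rested on 705 to 1513 reads per cortex library.

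In hippocampus Btaf1 ran from 32.3 to 43.4 CPM in the low group (median 37.8) and from 38.6 to 53.0 CPM in the high group (median 45.7). All 13 low libraries were below the high median. The log2 difference of Btaf1 was -0.28 ± 0.049 (SE; edgeR adjusted p = 0.0113). Of the 3 genes, Btaf1 had the smallest fold and was the one whose call depended on single libraries. Its cortex call was lost without double heterozygous replicate 1 (adjusted p = 0.0501) or replicate 4 (0.0543), and its hippocampus call without wild-type replicate 9 (0.105) or double heterozygous replicate 4 (0.0724). Without the 6 animals whose Slc25a1 went against the label, the cortex difference of Btaf1 was -0.39 with an adjusted p of 0.0741 (edgeR).

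ENSMUSG00000120174 had the largest fitted difference of the 3, at a low level. It ran from 0.271 to 0.727 CPM in the low cortex libraries (median 0.461) and from 0.603 to 1.57 CPM in the high ones (median 1.09), or 6 to 20 against 17 to 47 reads. The groups overlapped, with 9 of 13 low libraries below every high one. The log2 difference was -1.24 ± 0.167 (SE; edgeR adjusted p = 8.29e-05). In hippocampus ENSMUSG00000120174 ran from 0.109 to 0.914 CPM (median 0.235) in the low group and from 0.515 to 1.60 CPM (median 0.966) in the high group, a log2 difference of -1.79 ± 0.234 (SE; adjusted p = 0.00014). All but 1 of the 13 low hippocampus libraries were below every high one. This gene is not in the annotation used here, so its place in the genome was not determined and reads shared with another gene could not be checked.

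**Figure D2:**
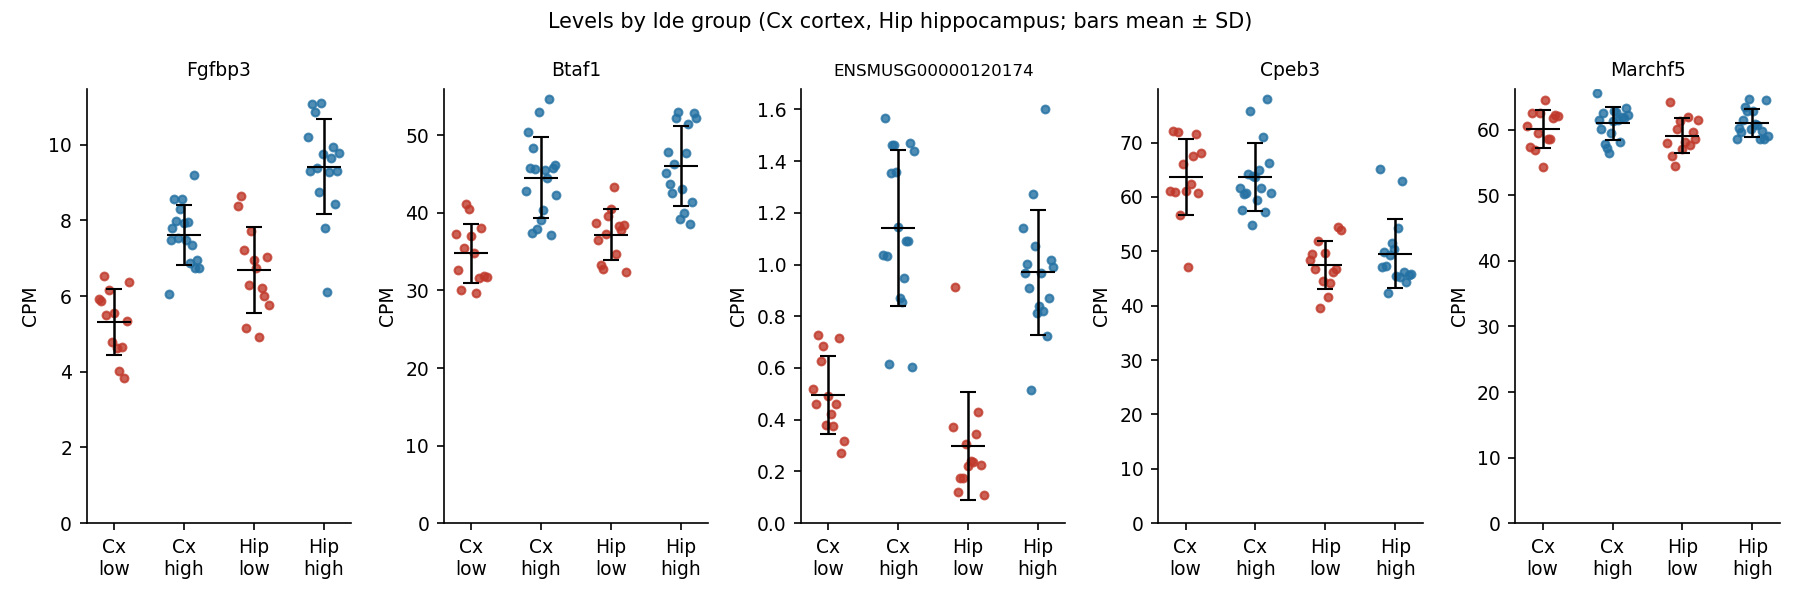
Levels (y axis, CPM from 0) of Fgfbp3, Btaf1, ENSMUSG00000120174, Cpeb3 and Marchf5 in cortex (Cx) and hippocampus (Hip) libraries of the low (red) and high (blue) Ide groups; each point is 1 library and bars are mean ± SD. The first 3 genes are lower with low Ide in both tissues, while the cortex means of Cpeb3 are 63.6 CPM in both groups.

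The genes that lie between Btaf1 and Ide were not called. Cpeb3 ran from 47.2 to 72.1 CPM in the low cortex libraries (median 62.3) and from 54.8 to 77.9 CPM in the high ones (median 61.7). The means of Cpeb3 were 63.6 ± 7.03 (SD, n = 13) and 63.6 ± 6.23 CPM (SD, n = 17), with a log2 difference of -0.0019 and a 95% interval from -0.12 to 0.12. Marchf5, the nearest gene on that side at 47 kb, had means of 60.1 ± 2.88 and 61.0 ± 2.46 CPM in cortex, a log2 difference of -0.029 with an interval from -0.085 to 0.027. Those intervals leave out the differences of Ide, Fgfbp3 and Btaf1 in cortex. In hippocampus Cpeb3 differed by -0.073 ± 0.062 and Marchf5 by -0.038 ± 0.029 (log2, SE), neither called. Cpeb3 overlaps the antisense gene A330032B11Rik, which was near 0.5 CPM, and the sources used here do not say whether strand was used in counting. Rpl10-ps6, a pseudogene inside Ide, differed by -0.035 ± 0.067 in cortex; reads it shares with Rpl10 or other copies could not be told apart.

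On the far side of Fgfbp3, Tnks2, a poly-ADP-ribosyltransferase, differed by -0.033 ± 0.028 in cortex and -0.011 ± 0.029 in hippocampus. On the other side of Ide, Kif11, a mitotic kinesin 39 kb away, had the largest uncalled difference among the near neighbours, -0.29 ± 0.14 in cortex at about 1 CPM (edgeR, n = 30, p = 0.0439, adjusted p = 1.00). In hippocampus Kif11 differed by -0.13 ± 0.12. Hhex, a homeobox gene, differed by 0.19 ± 0.12 and Exoc6, of the exocyst, by 0.045 ± 0.030 in cortex. Within 2 Mb on each side of Ide, 2 of 32 genes tested were called in each tissue, Fgfbp3 and Btaf1 in both. The other 30 lay between -0.29 and 0.29 in cortex, with a median of -0.0048. In hippocampus the uncalled neighbours spread further, from -0.36 for Myof to 0.60 for the pseudogene Gm47773, with Hhex at 0.31 ± 0.13.

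**Figure D3:**
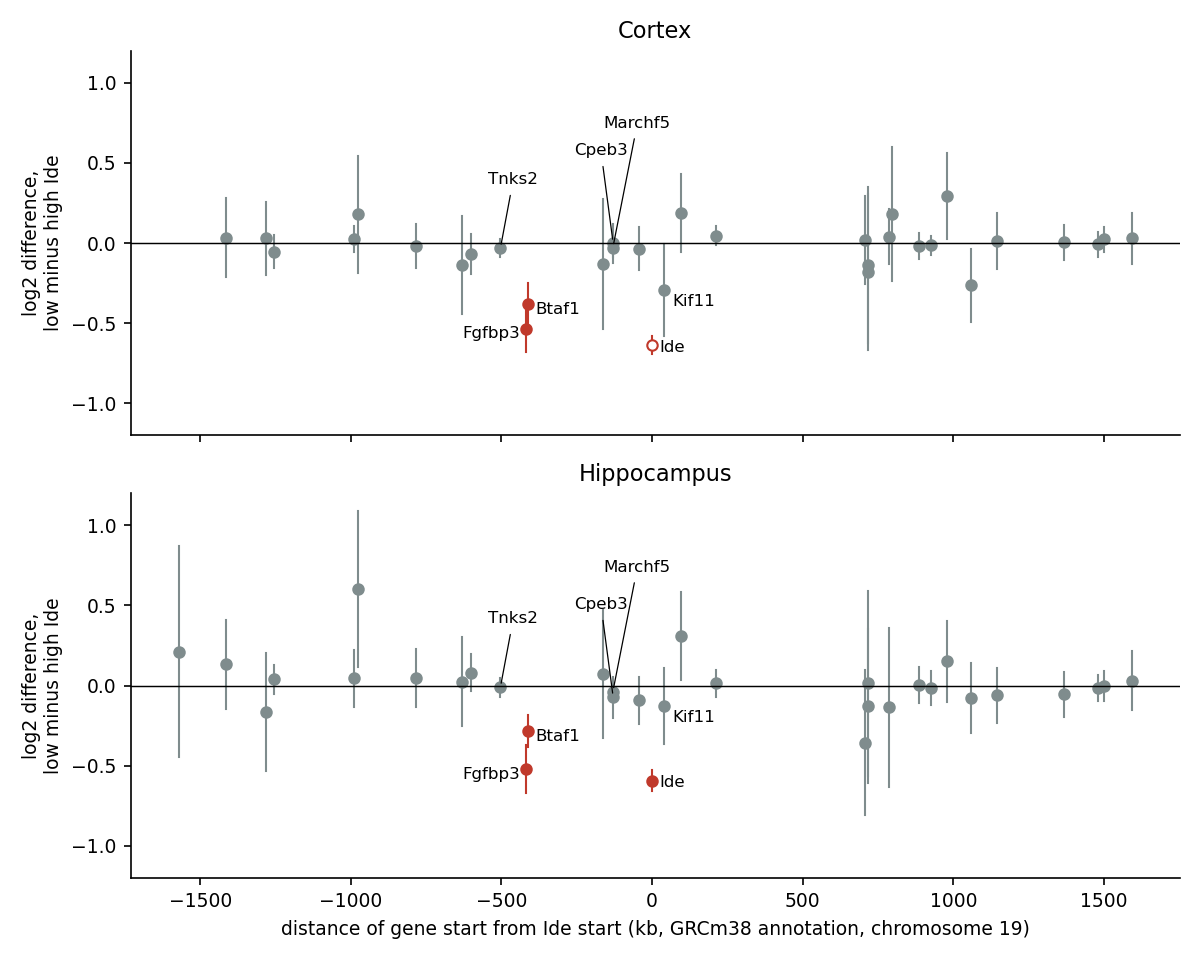
Log2 difference, low minus high Ide (y axis), of the genes around Ide in cortex (top) and hippocampus (bottom), by distance of the gene start from the Ide start in kb (x axis, GRCm38 annotation); bars are 95% intervals. Fgfbp3 and Btaf1 (red) lie below 0 with Ide (open in cortex, where it set the groups), while Cpeb3 and Marchf5 between them have intervals that include 0.

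Across all genes little else passed these tests. Of 19812 genes tested in both tissues besides Ide, 3 were called in both. An unadjusted p under 0.05 in both tissues was met by 35 genes, 27 with the same and 8 with the opposite direction. The difference between tissues was itself tested with animal as a block: 0 of 22779 genes passed, and 1037 (4.55%) had an unadjusted p under 0.05, 1.92% in the negative and 2.63% in the positive direction. For Btaf1 that difference was 0.11 ± 0.064 and for ENSMUSG00000120174 -0.54 ± 0.30 (log2, SE, hippocampus minus cortex). For Ide it is not given, since its cortex levels set the groups. In data simulated from the cortex libraries, the same fit recovered 58.3% of genes changed by 1.2-fold and 90.4% of those changed by 1.5-fold. From the hippocampus libraries it recovered 37.3% and 82.2%. It also called 8 unchanged genes in the cortex and 7 in the hippocampus simulation. Many genes were changed at once there, and the spread was set by expression level alone, without genotype effects. With few real differences the adjusted threshold is stricter, so these shares may be too high for the real libraries.

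**Figure D4:**
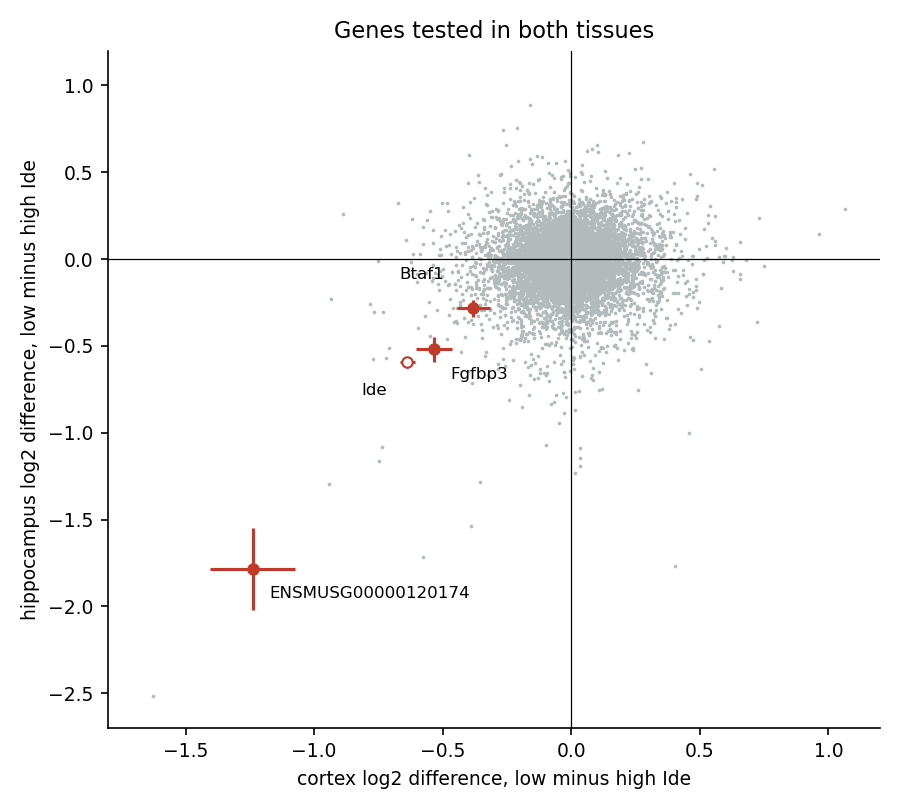
Log2 difference, low minus high Ide, in cortex (x axis) and hippocampus (y axis) for the genes tested in both tissues; grey points are genes not called, and red points with SE bars are Ide (open) and the 3 genes called in both. Ide, Fgfbp3 and Btaf1 lie near -0.64, -0.53 and -0.38 in cortex, and ENSMUSG00000120174 at -1.24 in cortex and -1.79 in hippocampus.

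The genes whose level followed that of Ide most closely were ranked by the absolute correlation of log2 CPM over the 30 cortex libraries, with labelled genotype means removed. ENSMUSG00000120174 came first with r = 0.846, then Fgfbp3 with 0.813 and Btaf1 with 0.772. Abhd10, Cdc16 and Fam105a followed with -0.656, -0.645 and -0.644, and the next gene had an absolute r of 0.639. Over the 29 hippocampus libraries the first 3 had r of 0.827, 0.760 and 0.673, while Abhd10, Cdc16 and Fam105a had 0.270, 0.160 and 0.0023. Since Ide has 2 levels, which set the groups, these values for the first 3 genes mostly restate the difference between the groups. Within the cortex groups r for ENSMUSG00000120174 was 0.253 (low) and 0.094 (high). For Fgfbp3 it was 0.128 and -0.195, and for Btaf1 -0.066 and 0.456. For Abhd10, Cdc16 and Fam105a it was -0.414, -0.408 and 0.029 in the low group, and 0.086, 0.156 and -0.496 in the high group.

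Genes that work with Ide were described as lists, and none of their members was called in either tissue. Of 18 tested proteases that degrade amyloid beta or small peptides, 11 were below 0 and 7 above in cortex, with a median log2 difference of -0.0094. Over all genes 51.5% were below 0, with a median of -0.0018. Mme (neprilysin), the main other amyloid-beta-degrading protease, differed by 0.044 ± 0.095 in cortex and -0.11 ± 0.089 in hippocampus. Nrdc and Pitrm1, proteases of the same family as Ide, differed by -0.014 ± 0.027 and 0.0016 ± 0.026 in cortex. The summed level of these proteases ran from 1158 to 1231 CPM in the low and from 1159 to 1240 CPM in the high cortex libraries.

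Of 19 genes of amyloid precursor processing, 9 were below 0 in cortex, with a median of 0.0022. App, the precursor, differed by 0.0022 ± 0.032 and Bace1, the beta secretase, by -0.023 ± 0.033. Of 12 tested ligands, receptors and binding proteins of insulin and the insulin-like growth factors, 7 were below 0 (median -0.024). Insr, the insulin receptor, differed by 0.010 ± 0.027 in cortex and 0.037 ± 0.029 in hippocampus. Igf1r, the receptor of insulin-like growth factor 1, differed by -0.047 ± 0.032 in cortex. Of 31 genes of insulin signalling, 16 were below 0 in cortex and 15 of 30 in hippocampus. Akt2, a kinase of that pathway, had the smallest unadjusted p of that list in hippocampus (0.14 ± 0.047, edgeR, n = 29, p = 0.0066, adjusted p = 1.00).

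Fgfbp3 binds fibroblast growth factors, and of 18 tested ligands, receptors and partners of that family 10 were below 0 in cortex, with a median of -0.014 and none called. Fgf2, a ligand in brain, differed by -0.034 ± 0.060, and Fgfr1 by -0.018 ± 0.032. Of 8 tested precursors and receptors of other peptides cleaved by Ide, 3 were below 0 in cortex and 4 in hippocampus. Sst, the somatostatin precursor, differed by -0.0014 ± 0.066 in cortex. A list of genes taken to differ between C57BL/6 substrains, drawn up with earlier results of these data known, had 8 tested members. Fgfbp3 was put on that list and was its only called gene. That repeats the call given above and adds no evidence on substrain. Nnt, a mitochondrial transhydrogenase on that list, differed by 0.25 ± 0.26 in cortex and 0.52 ± 0.24 in hippocampus (edgeR, n = 29, p = 0.0364, adjusted p = 1.00).

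Markers of cell types moved together with the groups in part, without a called gene. Over all genes tested, 51.5% lay below 0 in cortex and 52.4% in hippocampus. In cortex 12 of 12 oligodendrocyte markers, all detected, lay below 0 (median -0.098, 0 with an unadjusted p under 0.05). Their summed level ran from 1885 to 3644 CPM in the low and from 1709 to 4233 CPM in the high libraries. Of 17 activity-dependent immediate early genes, 17 lay below 0 in cortex (median -0.21, 0 with an unadjusted p under 0.05) and 11 in hippocampus (median -0.0088). The summed cortex level of these genes overlapped widely between the groups. It ran from 1086 to 3738 CPM in the low (median 2526) and from 1670 to 3667 CPM in the high libraries (median 2628). In hippocampus 12 of 12 microglia markers lay above 0 (median 0.14, 8 with an unadjusted p under 0.05), against 4 of 12 in cortex. Their hippocampus sums ran from 385 to 559 CPM in the low and from 359 to 517 CPM in the high group. Astrocyte markers lay above 0 in 12 of 12 in hippocampus (median 0.10, 5 with an unadjusted p under 0.05) and below 0 in 10 of 12 in cortex (median -0.036). Endothelial and pericyte markers lay above 0 in 11 of 12 in hippocampus (median 0.086) and below 0 in 8 of 12 in cortex (median -0.015). Oligodendrocyte precursor markers lay above 0 in 7 of 8 in hippocampus (median 0.052) and below 0 in 7 of 8 in cortex (median -0.059). Meningeal and fibroblast markers lay below 0 in 8 of 10 in cortex (median -0.20) and in 9 of 10 in hippocampus (median -0.083). Neuron markers lay below 0 in 8 of 10 in hippocampus (median -0.071) and in 4 of 10 in cortex (median 0.0019). Blood cell markers lay above 0 in 5 of 5 in cortex (median 0.062) and in 4 of 5 in hippocampus (median 0.14).

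Ribosomal protein genes lay above 0 in 39 of 42 in hippocampus (median 0.055) and in 18 of 42 in cortex. The part of these shifts in the cortex results was not tested. Bulk tissue cannot tell fewer cells of a type from less RNA per cell. With the summed microglia, astrocyte and endothelial marker level as a covariate, added after seeing the data, Ide, Fgfbp3 and ENSMUSG00000120174 passed in hippocampus, and Btaf1 had -0.27 with an adjusted p of 0.116 (edgeR). None of the 12 cell type marker lists held a called gene in either tissue.

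**Figure D5:**
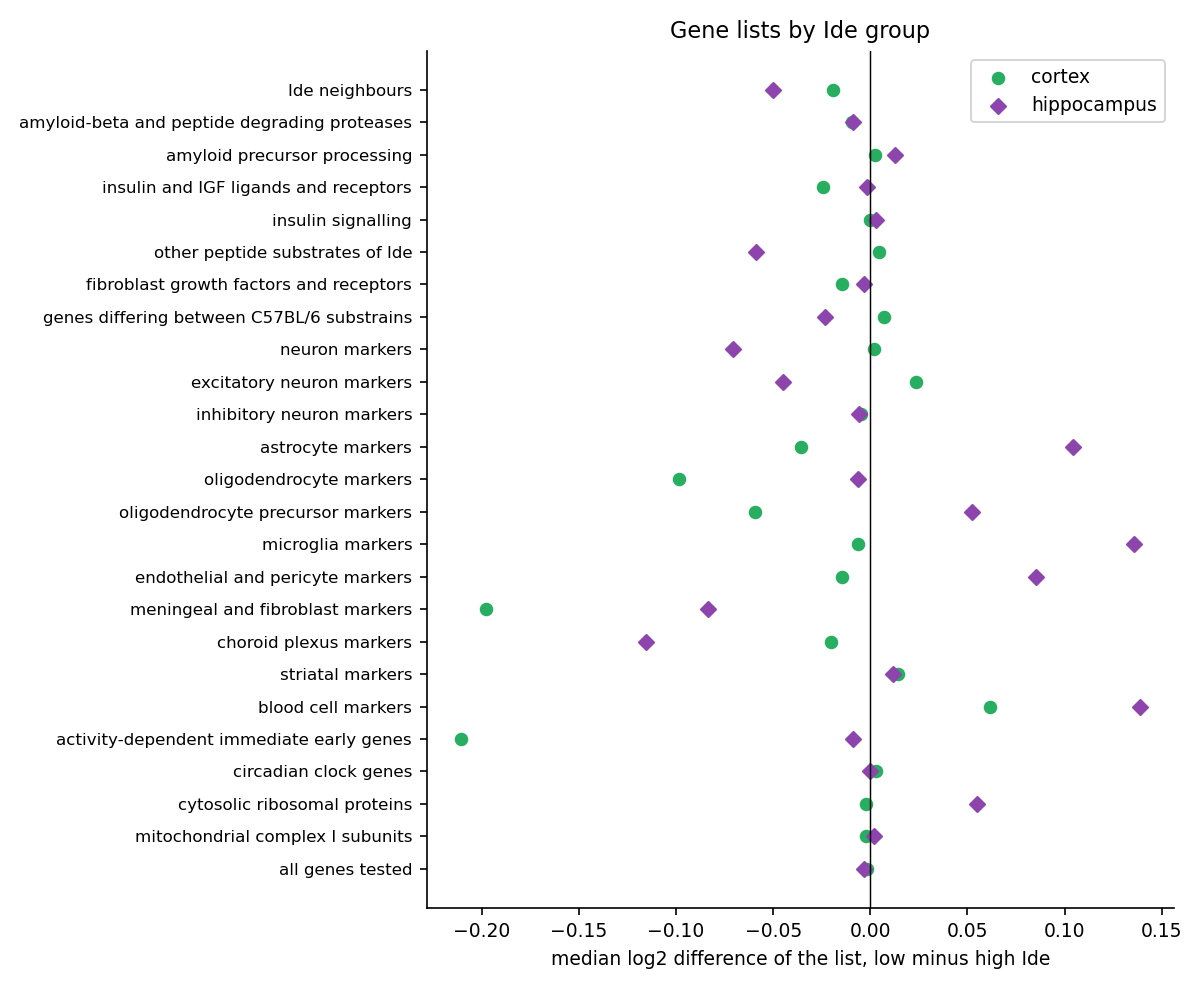
Median log2 difference, low minus high Ide (x axis), of each gene list (y axis) in cortex (circles) and hippocampus (diamonds). Lists of amyloid, insulin and fibroblast growth factor genes lie near 0 in cortex, and the microglia markers lie at 0.14 and the astrocyte markers at 0.10 in hippocampus.

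The comparisons of labelled genotypes were fitted again with the Ide group as a covariate, added after seeing the data. In hippocampus the Ide difference of Slc25a1 heterozygous from wild-type animals was 0.33 ± 0.15 (log2, SE, edgeR adjusted p = 0.616), not called. It was 0.061 ± 0.042 with the Ide group in the fit. For double heterozygous animals the 2 values for Ide were 0.32 ± 0.15 (edgeR adjusted p = 0.930) and 0.061 ± 0.042. The Ide group separates Ide completely in hippocampus, so the fall of these Ide values follows from the grouping and is no result. In hippocampus 5 of 7 Slc25a1 heterozygous, 5 of 7 double heterozygous and 2 of 8 wild-type animals were in the high group. Btaf1 in hippocampus differed between Slc25a1 heterozygous and wild-type animals by 0.23 ± 0.092 without and 0.10 ± 0.066 with the Ide group. Adding the Ide group moved the number of genes called between double heterozygous and wild-type cortex from 14 to 4 and in hippocampus from 2 to 4. Between Mrpl40 heterozygous and wild-type animals it went from 6 to 5 in cortex and from 1 to 5 in hippocampus, and for Slc25a1 heterozygous animals it was 0 in both tissues with and without the group. The cause of those shifts was not tested. These comparisons follow the labels, and measured Slc25a1 lay on both sides of 16 CPM under several of them. In cortex it ran from 10.9 to 23.9 CPM under the Slc25a1 heterozygous label and from 12.0 to 26.1 CPM under the wild-type label. Under the double heterozygous label it ran from 10.5 to 21.2 CPM. The count of 0 therefore describes the labels, and the effect of the Slc25a1 allele itself was not tested.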

How the data were processed

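Raw read counts per gene and normalized counts were deposited by the authors as 1 table each. Per the submitters' processing notes, FastQC, HISAT2, featureCounts and DESeq2 were used with the mm39 (GRCm39) build; the sources used here give neither versions nor settings. The deposited normalized counts equal a signal of raw counts divided by 1 factor per library, to within a relative range of 9.85e-10, and were used only in 1 alternative. Both tables hold 57180 genes, of which 7074 have no symbol and 27 have a symbol turned into a date, among them Marchf5, matched by its Ensembl ID.

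The groups were set by Ide in cortex at 62 CPM, with all gene counts of a library as its total. The members, lists and tests were chosen with earlier results of these data known. Counts were tested with edgeR 4.0.16 in R 4.3.3 (TMM, filterByExpr, robust quasi-likelihood test, labelled genotype as covariate, Benjamini-Hochberg adjustment over all genes tested, threshold 0.05). Ide was left out of the adjustment in cortex. Log2 differences are low minus high. Tissues were paired by the animal number in the labels. Over 29 animals and 5000 genes the deviations of an animal's cortex and hippocampus libraries had a median correlation of 0.112 (-0.020 to 0.399), against -0.0093 between animals. Permutation tests used 100000 resamples of log2 CPM, with no value added to CPM. The fit was tested on simulated counts. Named genes are Ide, Fgfbp3 and the targeted genes, those with the smallest p or largest fold, the 5 tested genes nearest Ide on each side, the 2 smallest p of each list and the 6 most like Ide in cortex; other named list members were picked with their values known. Alternatives used DESeq2 1.42.0, limma 3.58.1 and sva 3.50.0. GENCODE vM21 and RefSeq tables for GRCm38, another build than that of the counts, gave gene order, distances and promoter sequences, and 97.2% of the genes tested in cortex were matched to that annotation by ID. The libraries hold 21443017 to 32120906 counts each, and their number of animals limits the precision.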

Additional observations from a re-analysis of the deposited data

Results flagged for a closer look

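Within labelled genotype and Ide group, 32 sets of 4 to 6 libraries were screened for a library far from the others, and 5 were found; chance gives about 1 in 20 such sets. Ide in hippocampus was 80.97 CPM in double heterozygous replicate 2 of the high group (nearest of 5 libraries 73.2 CPM), which leaves that library on the high side. Fgfbp3 in cortex was 9.21 CPM in double heterozygous replicate 3 of the high group (nearest of 5 libraries 7.34 CPM). ENSMUSG00000120174 in cortex was 0.614 CPM in Slc25a1 heterozygous replicate 1 of the high group (nearest of 5 libraries 1.35 CPM). ENSMUSG00000120174 in hippocampus was 0.914 CPM in wild-type replicate 3 of the low group (nearest of 6 libraries 0.373 CPM), the 1 low library that lay among the high ones. ENSMUSG00000120174 in hippocampus was also set apart in Mrpl40 heterozygous replicate 5 of the high group, at 0.965 CPM (nearest of 4 libraries 0.838 CPM).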

How the results depend on the processing

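In cortex, where 3 genes passed besides Ide, DESeq2 called 5 (adding Crx and Gm4792). An edgeR test of whether the fold exceeded 1.2 left 1, ENSMUSG00000120174. Fgfbp3 did not pass it (adjusted p = 0.394), nor did Btaf1. Their fitted log2 differences of -0.53 and -0.38 are themselves folds above 1.2. In hippocampus, where 4 passed, the test of a fold beyond 1.2 left 2, Ide and ENSMUSG00000120174. The replicate block left 2 there, Ide and Fgfbp3. Without the block for the animal, 1 gene (Gm28299) in place of 0 differed between the tissues. Leaving out each library in turn gave 2 to 3 genes in cortex and 3 to 4 in hippocampus. Every other setting run gave 2 or 3 genes in cortex and 3 or 4 in hippocampus. Under the replicate block 2 genes passed in cortex. The labels do not say that a replicate number marks a shared litter or day. Same-numbered libraries of different genotypes had a median correlation of 0.128 in cortex (-0.41 to 0.53), against -0.026 for other numbers, and of 0.065 in hippocampus, against -0.0046. Btaf1 lost its cortex call without the filter on low counts (adjusted p = 0.0690), with the replicate block (0.10) and with 2 surrogate variables (0.0661), and its hippocampus call with the replicate block (0.310), as ENSMUSG00000120174 did there (0.108). No called gene changed sign in any of 294 fits. These counts cover only the named genes, each fitted per tissue. Of their 128 results not called, 0 became called in 5372 fits, and 169 fits had the other sign. Crx and Gm4792, which DESeq2 added, are not among those genes. No animal lay within 3 CPM of 62, so that alternative gave no value. ENSMUSG00000120174 rests on 3 to 47 reads per library, which limits its precision.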

Other observations

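Among the genes tested in both tissues and not called, Fat2, a cadherin of cerebellar granule cells, lay farthest below 0 in both tissues. Fat2 was named after its values were seen. Its log2 difference was -1.63 ± 0.45 in cortex and -2.51 ± 1.46 in hippocampus (SE), and its edgeR adjusted p was 1.00 in both. Trp53-ps, a pseudogene, had the smallest p among the uncalled genes in cortex (1.06 ± 0.26, adjusted p = 0.953), and a hippocampus difference of 0.29 ± 0.27. Its reads cannot be told apart from those of near-identical copies.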
